A study of Sus scrofa with 6 samples.

Results

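The genes of the proteasome were followed in the liver of pigs after an extended partial hepatectomy, an operation in which most of the organ is resected. They were chosen by name, as array clusters whose single gene symbol begins with PSMA, PSMB, PSMC, PSMD, PSME, PSMF or PSMG and a digit. This gave 19 genes in 21 clusters, out of 10247 named genes and 25385 tested clusters, and 7 further proteasome genes were found through current gene tables and are reported beside them. Total RNA of 3 pigs given mesenchymal stromal cells (MSC) and 3 pigs given vehicle (control) was measured on 6 arrays, MSC 1 to 3 and control 1 to 3. All pigs were adult male German landrace animals by the methods of the study, and all had the resection and were kept under intensive care for 1 day after it. The MSC came from porcine bone marrow, were turned towards a hepatocytic phenotype in culture and were infused into a central vein, and the controls received Ringer solution. The labels call these arrays treated and untreated, and by the methods each array stands for another animal.

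The proteasome is the protease complex that degrades proteins marked with ubiquitin. Its barrel-shaped core, the 20S particle, is built of alpha and beta rings, and the beta subunits PSMB5, PSMB6 and PSMB7 carry the cleaving activities. The 19S cap recognises, unfolds and feeds in the substrates. Interferons induce alternative catalytic subunits, PSMB8, PSMB9 and PSMB10, which replace the constitutive ones to form the immunoproteasome, and the activator PA28, made of PSME1 and PSME2. These forms favour the production of peptides for MHC class I and are abundant in leukocytes. Of 48 listed subunits, chaperones and regulators, 22 had no cluster with a matching name and were not analysed here, among them PSMB10 and PSME4.

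Each cluster, a set of probes for 1 transcript region, has a log2 signal summarised by RMA (robust multi-array averaging), so that a difference of 1 is a doubling. The median signal of all tested clusters lay between 6.51 and 6.57 on the MSC arrays and between 6.55 and 6.59 on the control arrays. A background level of 8.18 was taken from the upper end of 23 antigenomic probe sets, and 18 of the 19 genes had a mean above it. All 9 measured hepatocyte markers lay above it too, with albumin at 13.56, 13.51 and 13.63 on MSC 1, 2 and 3 and between 13.46 and 13.55 on the control arrays. The 3 arrays per group limit the precision, and in whole tissue a change within cells cannot be told from a different share of cell types. Cell type markers differed between the groups and within the control group. Leukocyte markers (6 of 12 measured) averaged 8.84 to 9.08 on the MSC arrays, against 8.35, 9.65 and 9.26 on control 1, 2 and 3. Stellate cell and fibroblast markers (7 of 7) averaged 9.19 to 9.55 on the MSC arrays, against 9.17, 10.25 and 10.16 on control 1, 2 and 3. Hepatocyte markers averaged 12.17 to 12.33 on the MSC arrays, against 12.39, 11.83 and 11.89 on the same control arrays. All 4 measured bile duct markers, 5 endothelial markers and 7 stellate cell and fibroblast markers had a lower mean in MSC, with median differences of -0.61, -0.16 and -0.36. Of these, CFTR (-0.94), EPCAM (-0.77), VWF (-0.71) and RGS5 (-0.67) passed the threshold of the study (p under 0.05 before adjustment in limma and a log2 difference of at least 0.5 in size). VWF and all 4 bile duct markers had means over the 6 arrays below the background level. The control mean of CFTR, 8.41, was above it, and RGS5 was below it on MSC 1 and 2 (8.07 and 7.74). Kupffer cell and macrophage markers (8 of 10 measured) mostly went the other way, with 7 positive differences and 1 negative (median 0.16). They averaged 9.12 to 9.25 on the MSC arrays, against 8.76, 9.14 and 9.18 on control 1, 2 and 3. Control 1 was the lowest array for 5 of the 8. The negative difference was that of MARCO (-0.28), which lay below the background level. Among the positive ones CD14 differed by 0.48, with a limma p of 0.0054 before adjustment, and did not pass the threshold of the study. The part of these markers in the differences of the proteasome genes was not tested.

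All 19 proteasome genes had a higher mean in MSC than in control, by 0.07 to 0.52 on the log2 scale (median 0.24). None of them passed the threshold of the study. Of all tested clusters 2.73% passed it, and of those above the background level 3.64%. Over all tested clusters the median difference was -0.01 and 46.7% of the differences were positive. Over the 5627 clusters above the background level, among which most of these genes fall, the median was 0.07 and 64.6% were positive. Without the fold criterion 3 genes had an unadjusted p under 0.05, all higher in MSC, where 2.95% of all clusters and 4.62% of those above the background level did. The lowest Benjamini-Hochberg adjusted p among the 19 was 0.736 by limma. With 1 array left out at a time the median difference ran from 0.13 without control 2 to 0.31 without MSC 2. It was 0.16 without MSC 3, and 19 positive differences became 16 without control 2 and 17 without MSC 3. The 7 genes found through gene tables had 5 positive and 2 negative differences (median 0.09). The negative ones were PSMA8 and PSMG3, both below the background level. All 26 genes together had 24 positive differences (median 0.20), and none passed the threshold of the study.

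**Figure D1:**
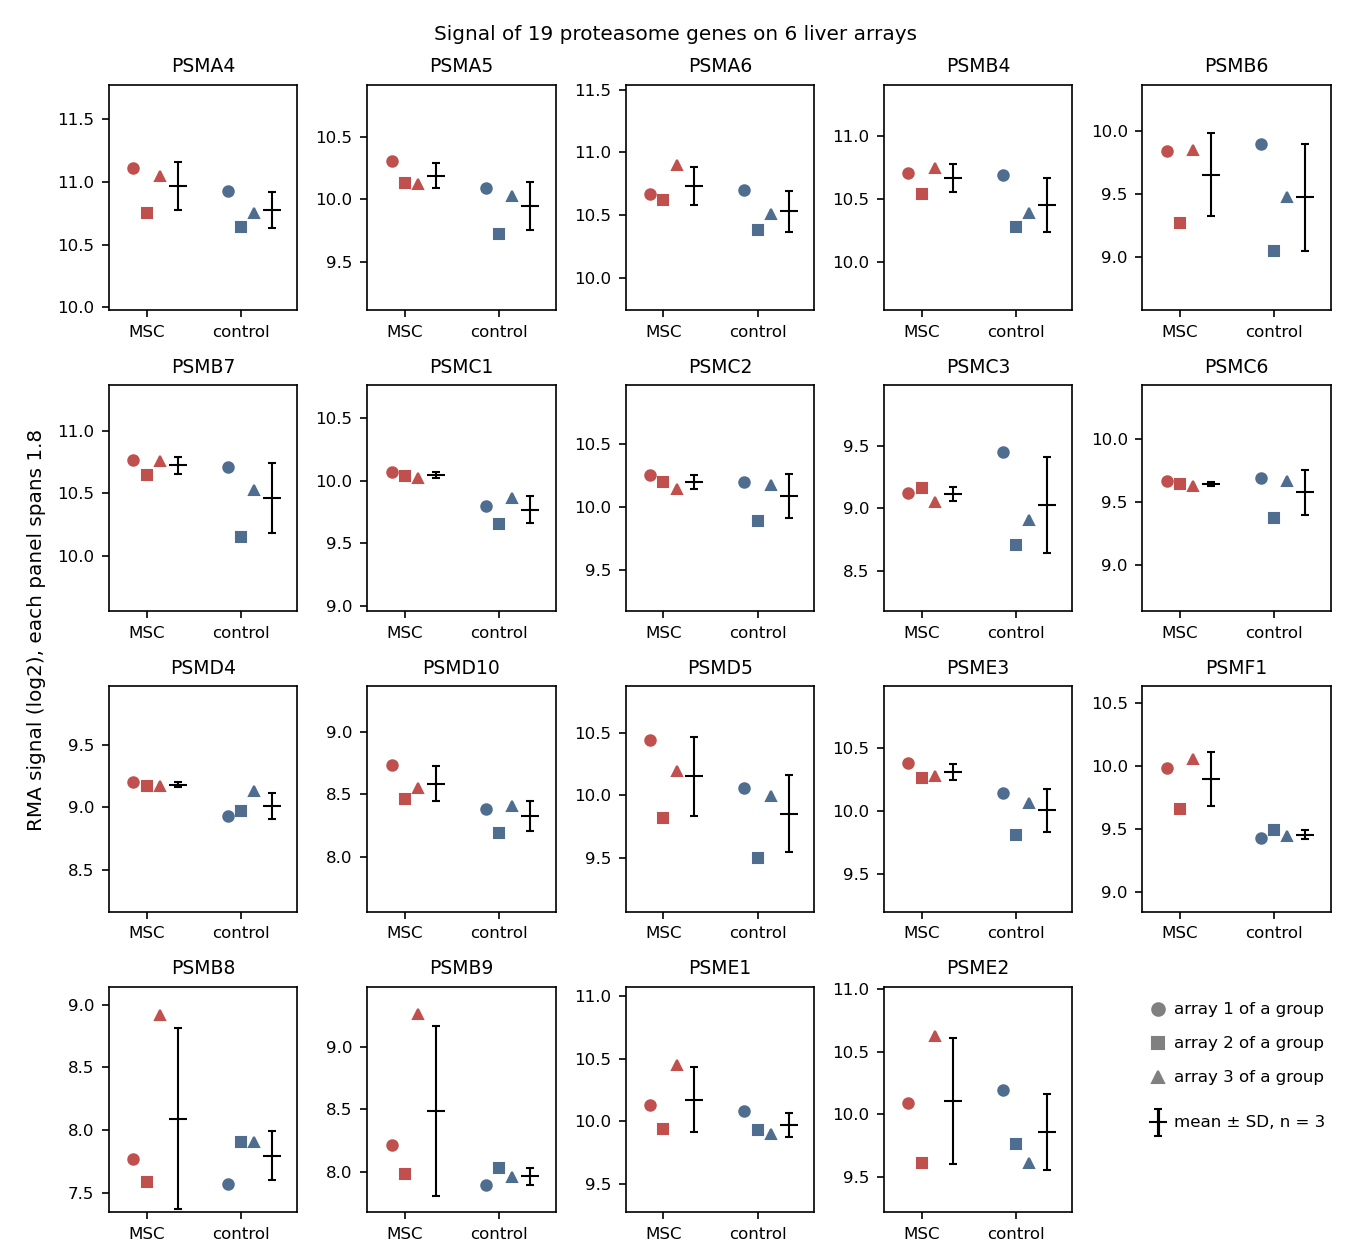
RMA signal (log2) of the 19 proteasome genes, 1 panel each, with the MSC arrays left of the control arrays; symbols mark arrays 1, 2 and 3 of a group and bars give mean ± SD (n = 3). All MSC values lie above all control values in 6 panels (PSMA5, PSMC1, PSMD4, PSMD10, PSME3 and PSMF1), and MSC 3 stands above the other arrays for PSMB8, PSMB9, PSME1 and PSME2.

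The groups did not overlap for 6 of the 19 genes, and in each of them all MSC arrays were above all control arrays. Over all tested clusters 5.64% were separated in this direction, and over those above the background level 9.33%. No gene of the 19 had all MSC arrays below the controls, as 5.96% of all tested clusters did. The share in this direction above the background level, where most of these genes fall, is not given here.

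The largest difference among these 6 genes was that of PSMF1 (28 probes, chromosome 17), which encodes PI31, a protein that binds the 20S core and inhibits it in vitro. PSMF1 had 9.99, 9.65 and 10.05 on MSC 1, 2 and 3, against 9.42, 9.49 and 9.45 on control 1, 2 and 3. The control arrays lay close together, and the spread was larger in MSC, where MSC 2 was the lowest. The difference was 0.45 (95% interval 0.13 to 0.76, a fold of 1.36), with a limma p of 0.0125 before adjustment and 0.736 after it. It remained between 0.37 without MSC 3 and 0.57 without MSC 2. The unadjusted p stayed under 0.05 in 5 of the 6 fits with 1 array left out, and without MSC 2 the gene passed the threshold of the study.

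PSME3, the nuclear activator subunit PA28 gamma (12:20244728-20250334 on the minus strand in Sscrofa10.2), was measured with 27 probes. It had 10.38, 10.26 and 10.28 on the MSC arrays, against 10.14, 9.81 and 10.06 on the control arrays. Control 2 was the lowest array, and the gap between the groups was small next to the range of the controls. The difference was 0.30 (a fold of 1.23), with an unadjusted limma p of 0.0482 that stayed under 0.05 in 1 of the 6 fits with 1 array left out.

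PSMC1 encodes an ATPase of the 19S base whose tail takes part in opening the gate of the core. It had 10.07, 10.04 and 10.02 on the MSC arrays, against 9.80, 9.65 and 9.86 on the control arrays. The MSC values were nearly equal, and all were higher than those of the controls. The difference was 0.28 (95% interval 0.01 to 0.54), with an unadjusted limma p of 0.0434. Of the 6 fits with 1 array left out, only that without control 3 kept this p under 0.05.

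The other ATPases of the cap unfold substrates as parts of the same ring, and their differences were the smallest of the 19 genes. PSMC2 had 10.26, 10.20 and 10.14 on the MSC arrays, against 10.20, 9.89 and 10.18 on the control arrays. PSMC3 had 9.12, 9.16 and 9.05 on the MSC arrays, against 9.45, 8.71 and 8.91 on the control arrays, and PSMC6 had 9.66, 9.64 and 9.63, against 9.69, 9.37 and 9.67. In all of them the MSC arrays lay close together, the groups overlapped and control 2 was the lowest array. MSC 1 and, by less than 0.01, MSC 2 of PSMC2 were above the controls, and all MSC values of PSMC3 and PSMC6 lay within the range of the controls. The differences were 0.11 for PSMC2 (95% interval -0.19 to 0.41), 0.09 for PSMC3 (-0.36 to 0.53) and 0.07 for PSMC6 (-0.23 to 0.37). Without control 2 they were 0.01, -0.07 and -0.04. PSMC5, found through its older name TBP10, differed by 0.09 (-0.20 to 0.38).

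In the alpha ring, which forms the gate of the core, 3 genes were measured by symbol, with differences between 0.20 and 0.24. PSMA5 (4:121153782-121226070 on the plus strand in Sscrofa10.2) had 10.31, 10.13 and 10.13 on the MSC arrays, against 10.09, 9.73 and 10.03 on the control arrays. Its groups did not overlap, and the interval of the difference, -0.08 to 0.56, included 0. PSMA4 had 11.11, 10.75 and 11.05 on the MSC arrays, against 10.93, 10.64 and 10.75 on the control arrays. PSMA6 had 10.67, 10.62 and 10.90 on the MSC arrays, against 10.70, 10.38 and 10.50 on the control arrays. Both overlapped between the groups: for PSMA4 control 1 and, narrowly, control 3 were above the lowest MSC array, and for PSMA6 control 1 was. PSMA3, found through gene tables, differed by 0.15 (95% interval -0.25 to 0.55). PSMA8, an alpha subunit of testis, lay at 2.72 ± 0.19 in MSC and 2.73 ± 0.25 in control (SD, n = 3 arrays each), below the median of the antigenomic probe sets of 3.95.

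A second cluster that the annotation names PSMA5 lies elsewhere, at 14:69255561-69256325 in Sscrofa10.2, and was measured with 12 probes. It had 2.71, 2.73 and 2.83 on the MSC arrays, against 3.03, 3.46 and 3.09 on the control arrays. All MSC values were lower than the control values, at a level below the antigenomic median. The difference was -0.44 (95% interval -0.77 to -0.11), opposite in sign to that of the main cluster, with an unadjusted limma p of 0.0163, and it did not pass the threshold of the study. With the mean of both clusters in place of the brighter one, 18 of the 19 differences were positive.

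The constitutive beta ring contains the subunits that the immunoproteasome replaces. PSMB6, with caspase-like activity, had 9.84, 9.27 and 9.85 on the MSC arrays, against 9.90, 9.05 and 9.47 on the control arrays. The values of both groups were spread over the same range, with array 2 the lowest in each. Its difference of 0.18 (95% interval -0.39 to 0.75) was -0.03 without control 2. PSMB7, with trypsin-like activity, had 10.77, 10.64 and 10.76 on the MSC arrays, against 10.71, 10.16 and 10.52 on the control arrays. The MSC arrays were closely grouped and control 1 lay among them, and the difference was 0.26 (-0.11 to 0.63). PSMB5, with chymotrypsin-like activity and found through gene tables, had 9.33, 9.14 and 9.20 on the MSC arrays, against 9.33, 8.69 and 9.02 on the control arrays. Control 1 reached the highest MSC value, control 2 was the lowest array, and the difference of 0.21 (-0.19 to 0.61) became 0.05 without control 2. PSMB4, a beta subunit without catalytic activity, had 10.71, 10.54 and 10.75 on the MSC arrays, against 10.69, 10.28 and 10.39 on the control arrays, a difference of 0.21. For PSMB4, PSMB5 and PSMB7 the unadjusted limma p was under 0.05 without control 1 and in no other fit with 1 array left out.

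**Figure D2:**
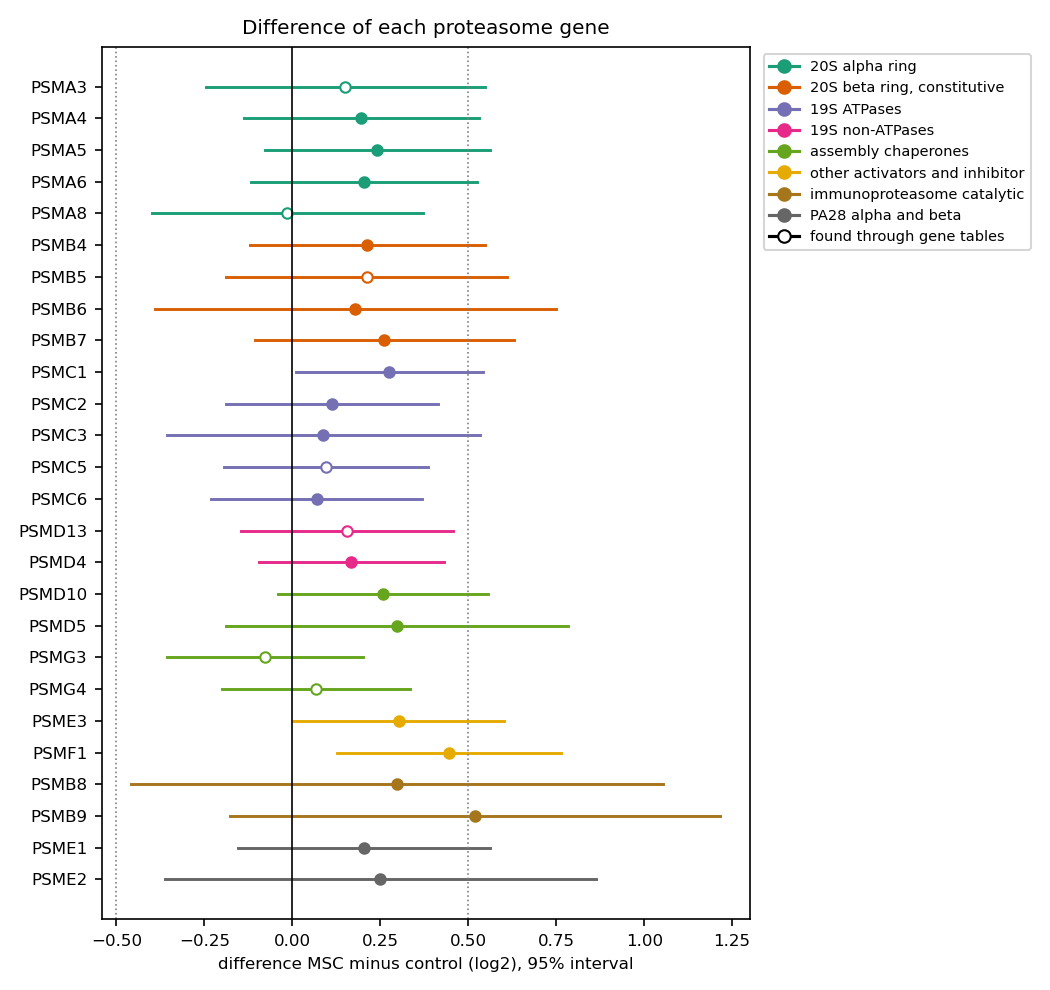
Difference MSC minus control (log2) of each gene with its 95% interval from limma, coloured by subcomplex; filled points are the 19 genes matched by symbol and open points the 7 found through gene tables, and dotted lines mark differences of -0.5 and 0.5. All filled points lie right of 0, the intervals of PSMF1, PSME3 and PSMC1 exclude 0, and the widest intervals are those of PSMB8 and PSMB9.

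Of the non-ATPase subunits of the cap only PSMD4, a receptor for ubiquitin chains, was measured by symbol. It had 9.20, 9.17 and 9.17 on the MSC arrays, against 8.93, 8.97 and 9.13 on the control arrays. The groups did not overlap, but control 3 came close to the MSC arrays, and the difference was 0.17 (95% interval -0.10 to 0.43). PSMD13, a subunit of the lid found through gene tables, differed by 0.15 (-0.15 to 0.46), with overlapping groups.

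Chaperones that assist the assembly of the 19S base were represented by PSMD10 and PSMD5. PSMD10 (chromosome X), also named gankyrin and known in human liver cancer as an oncoprotein, had 8.74, 8.47 and 8.55 on the MSC arrays, against 8.38, 8.19 and 8.41 on the control arrays. The groups did not overlap, and the difference was 0.26 (95% interval -0.04 to 0.56). PSMD5 had 10.44, 9.82 and 10.19 on the MSC arrays, against 10.06, 9.50 and 9.997 on the control arrays. Array 2 was the lowest of each group, the groups overlapped, and the difference of 0.30 (-0.19 to 0.78) became 0.12 without control 2. The chaperones of the core PSMG3 and PSMG4, both found through gene tables and below the background level, differed by -0.08 (-0.36 to 0.20) and 0.07 (-0.20 to 0.33).

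The immunoproteasome and PA28 genes varied in another way. PSMB9, the inducible counterpart of PSMB6, had the largest difference of all 19 genes, and it rested on 1 array. PSMB9 had 8.22, 7.98 and 9.26 on MSC 1, 2 and 3, against 7.90, 8.03 and 7.96 on control 1, 2 and 3. MSC 3 stood well above the other 5 arrays, and MSC 2 lay within the range of the controls. MSC 2 and all control arrays were below the background level of 8.18, so that the difference cannot be read as an exact fold. The difference of 0.52 (95% interval -0.18 to 1.22) had a limma adjusted p of 0.767. It was 0.13 without MSC 3 and 0.77 without MSC 2, where it passed the threshold of the study. The second cluster of PSMB9, with 9 probes, had 6.22, 5.72 and 6.94 on the MSC arrays, against 5.43, 5.77 and 5.90 on the control arrays, again with MSC 3 as the highest.

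PSMB8, the counterpart of PSMB5 (7:29269958-29273035 on the minus strand in Sscrofa10.2, 15 probes), had 7.77, 7.59 and 8.92 on the MSC arrays, against 7.57, 7.91 and 7.91 on the control arrays. Only MSC 3 lay above the background level. The difference was 0.30 (95% interval -0.46 to 1.05), and it was -0.12 without MSC 3. In the Sscrofa11.1 annotation TAP2, PSMB8, TAP1 and PSMB9 are consecutive protein-coding genes on chromosome 7, where TAP1 and TAP2 encode the transporter that carries peptides to MHC class I.

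The subunits of PA28 showed the same array on top. PSME2 (7:80425840-80429278 on the plus strand in Sscrofa10.2) had 10.09, 9.62 and 10.62 on the MSC arrays, against 10.20, 9.76 and 9.62 on the control arrays. MSC 3 was the highest array, MSC 2 and control 3 were the lowest and differed by less than 0.01, and the difference of 0.25 (95% interval -0.36 to 0.86) was -0.01 without MSC 3. PSME1 (7:80433126-80435858 on the minus strand) had 10.13, 9.94 and 10.45 on the MSC arrays, against 10.08, 9.93 and 9.90 on the control arrays. MSC 1 and MSC 2 lay at or near the control values, and the difference of 0.20 (-0.15 to 0.56) was 0.07 without MSC 3. The median difference of PSMB8, PSMB9, PSME1 and PSME2 was 0.27 with all arrays and 0.03 without MSC 3, where 2 of the 4 were positive.

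**Figure D3:**
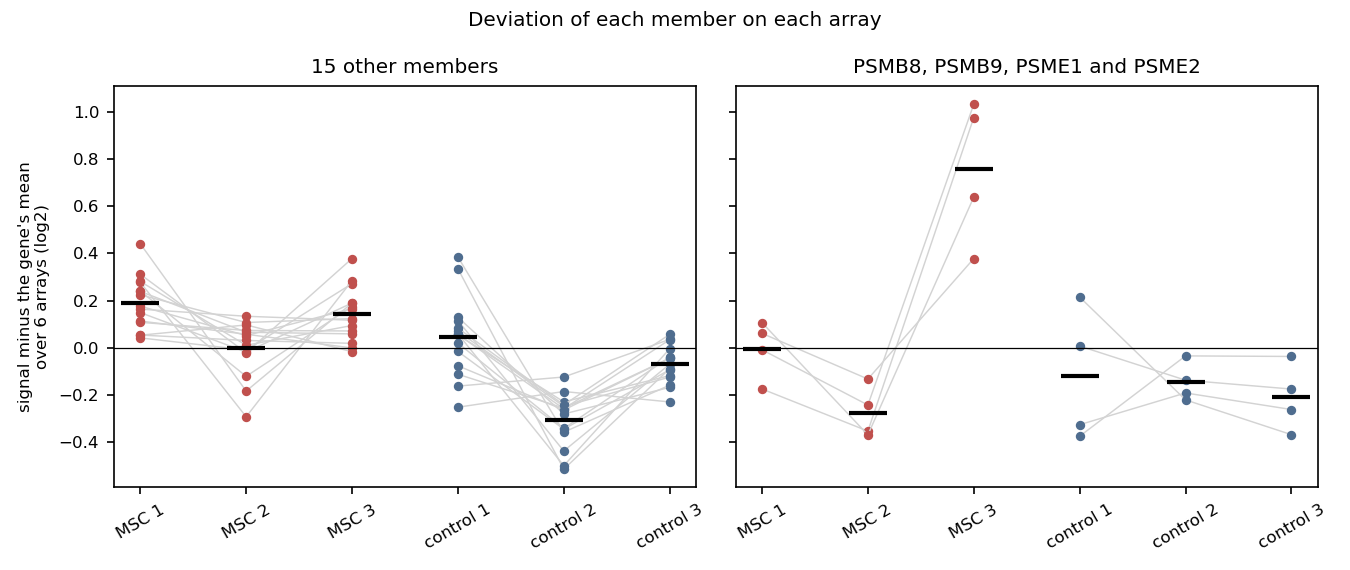
Signal of each gene minus its mean over the 6 arrays (log2), by array, for the 15 other members (left) and for PSMB8, PSMB9, PSME1 and PSME2 (right); grey lines join the arrays of 1 group for each gene and black bars are means over genes. The 4 immunoproteasome and PA28 genes average 0.76 above their means on MSC 3, and the 15 others average 0.31 below theirs on control 2.

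Set against their own means over the 6 arrays, the 4 immunoproteasome and PA28 genes averaged -0.004, -0.27 and 0.76 on MSC 1, 2 and 3, against -0.12, -0.15 and -0.21 on control 1, 2 and 3. MSC 2 was thus the lowest of the 6 arrays and MSC 3 the highest. All 4 had their highest value on MSC 3, which was the highest array for 3 of the 15 other members. These 15 averaged 0.19, -0.001 and 0.14 on MSC 1, 2 and 3, against 0.05, -0.31 and -0.07 on control 1, 2 and 3. Control 2 was the lowest array for 13 of the 15 and for none of the 4. Control 2 also had the lowest mean of hepatocyte markers and the highest means of leukocyte, stellate cell and bile duct markers. Control 3 came close to control 2 in hepatocyte (11.89 against 11.83), stellate cell (10.16 against 10.25) and bile duct markers (8.28 against 8.31). In leukocyte markers it had 9.26 against 9.65. The part of these markers in the values of control 2 was not tested.

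Whether the inducible subunit changed relative to the one it replaces was asked within each array, as the log2 signal of the inducible minus that of the constitutive gene. The absolute value of this ratio has no meaning, because the probes differ, so only its shift between groups is of use. PSMB8 was below the background level on 5 of the 6 arrays and PSMB9 on 4 of the 6, all controls included, which limits these shifts as well. For PSMB9 over PSMB6 it was -1.62, -1.29 and -0.59 on the MSC arrays, against -2.00, -1.01 and -1.51 on the control arrays. MSC 3 was the highest array and control 1 the lowest, and the groups overlapped. The shift was 0.34, with p = 0.5 in a two-sided exact permutation test (p = 0.8 after adjustment over 2 tests), and it was 0.05 without MSC 3. For PSMB8 over PSMB5 it was -1.56, -1.55 and -0.28 on the MSC arrays, against -1.76, -0.79 and -1.11 on the control arrays. The shift was 0.09 (exact permutation p = 0.8), and -0.34 without MSC 3. With 3 arrays per group the smallest p of this test is 0.1.

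Class I presentation genes and interferon regulators, of which 16 of 21 were measured, had 14 positive differences (median 0.24). None passed the threshold of the study and none had an unadjusted limma p under 0.05, which 6.55% of all tested clusters had. Their highest array was MSC 3 in 9 of the 16. B2M, the light chain of MHC class I, had 12.31, 12.16 and 12.60 on the MSC arrays, against 11.89, 12.25 and 12.01 on the control arrays. TAPBP, which loads peptides onto class I, had 8.66, 8.45 and 8.98 on the MSC arrays, against 8.09, 8.54 and 8.43 on the control arrays. TAP1 had 8.16, 7.94 and 8.89 on the MSC arrays, against 7.73, 8.49 and 8.02 on the control arrays. For B2M, TAPBP and TAP1 alike the groups overlapped and MSC 3 was the highest array. PDIA3 and CALR of the same list had MSC 3 as the lowest MSC array (12.46 and 12.67). Of the 16 genes 1, PDIA3, had all MSC arrays above all control arrays. Of all tested clusters 5.64% did, and of those above the background level 9.33%.

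Among the regulators, IRF1, an activator of PSMB9 in human and mouse cells, did not have its highest value on MSC 3. It had 7.73, 7.85 and 7.43 on the MSC arrays, against 6.93, 8.01 and 7.89 on the control arrays, with MSC 3 as the lowest MSC array. IFNG, the gene of interferon gamma, lay between 3.25 and 3.30 on the MSC arrays and between 3.05 and 3.28 on the control arrays, below the antigenomic median on all 6. IFNGR1, a chain of its receptor, had a difference of 0.24 (95% interval -0.07 to 0.55), and IRF9 one of 0.29 (-0.08 to 0.65). The mean of the leukocyte markers on MSC 3, 8.84, was the lowest of the MSC arrays. The mean of the T and NK cell markers was 6.34 on MSC 3 against 6.26 and 6.22 on MSC 1 and 2, with all 10 markers below the background level, and 5.90 to 6.58 on the control arrays.

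**Figure D4:**
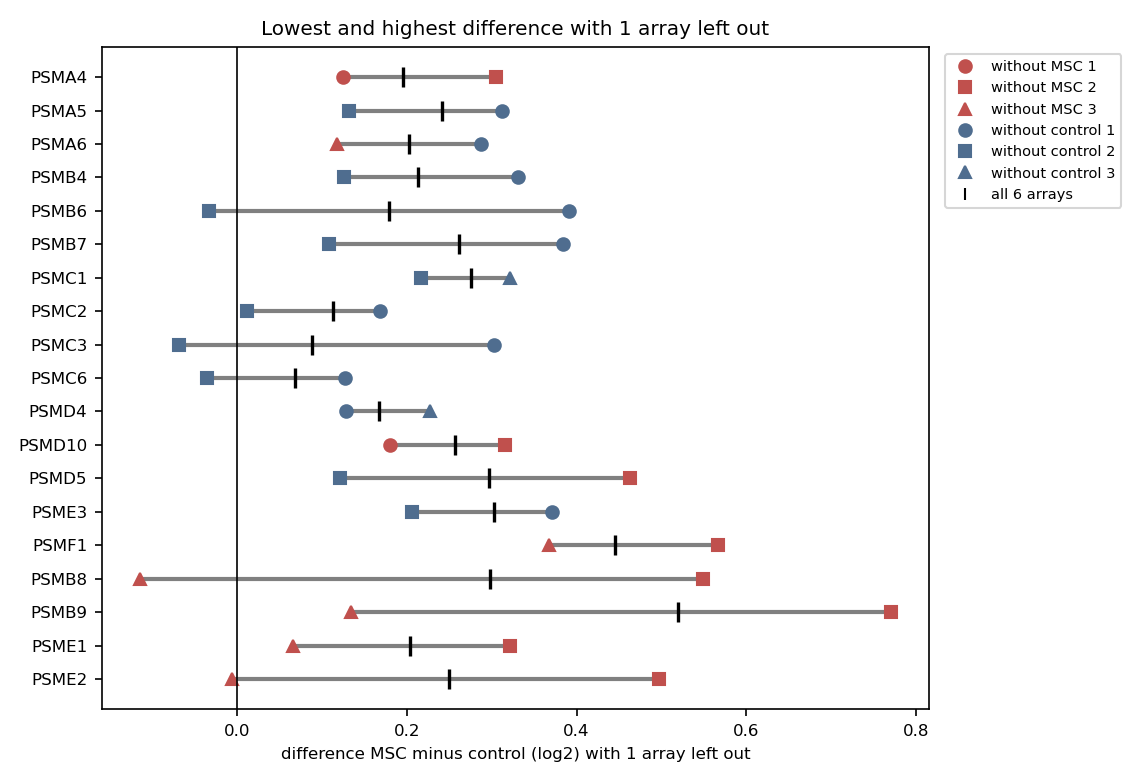
Difference MSC minus control (log2) of the 19 genes with all 6 arrays (black tick) and the lowest and highest value with 1 array left out, where colour and symbol give the array. PSMB8, PSMB9, PSME1 and PSME2 are lowest without MSC 3, PSMB6, PSMC3 and PSMC6 fall below 0 without control 2, and PSMF1 stays between 0.37 and 0.57.

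Partners of the proteasome that have no PSM name were listed with 30 symbols, older names included, and 16 were measured. They comprise ubiquitin genes, shuttle factors and the transcription factor NFE2L1, which raises the expression of proteasome genes when the proteasome is inhibited. Of these 16, 10 had a positive difference (median 0.07), none passed the threshold of the study, and none had an unadjusted limma p under 0.05. NFE2L1 had 9.51, 9.83 and 9.69 on the MSC arrays, against 9.32, 9.47 and 9.70 on the control arrays, a difference of 0.18 (95% interval -0.16 to 0.52). The groups of NFE2L1 overlapped, since control 3 reached MSC 3. DDI2, the protease that activates NFE2L1, had 8.74, 8.75 and 8.88 on the MSC arrays, against 8.70, 8.50 and 8.71 on the control arrays, and all its MSC arrays were higher. NGLY1, the glycanase that acts on NFE2L1 as well, had 8.02, 7.84 and 7.98 on the MSC arrays, against 8.07, 8.18 and 8.20 on the control arrays. All its MSC arrays were lower, with a difference of -0.21 (95% interval -0.47 to 0.06). Of the 16 partners 1 was separated in each direction, near the 5.64% and 5.96% of all tested clusters that were separated upwards and downwards. PAAF1, which binds the ATPases of free 19S particles, differed by 0.27 (-0.18 to 0.73) and AKIRIN2, which brings proteasomes into the nucleus, by 0.20 (-0.12 to 0.51), both with overlapping groups. NGLY1 and PAAF1 had means below the background level.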

How the data were processed

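The authors labelled total RNA by the WT PLUS protocol, used the Porcine Gene 1.0 ST array of Affymetrix and computed the deposited log2 values by RMA in Affymetrix Expression Console 1.4, as the submitters' processing notes name it. By the methods of the study, liver arrays were pre-processed apart from those of other organs, with quantile normalization; for that step they name RMA in the affy package with Brainarray annotation, whereas the deposited IDs are those of the array's own clusters. A deposited annotation table supplied names, categories and the number of probes. It also holds 6 signal columns under names that fit no label of the samples, and these were left out. Its Ensembl transcripts carry Sscrofa10.2 positions, and gene tables of Sscrofa11.1 gave names and neighbours.

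All 25385 main and rescue clusters were fitted with limma 3.58.1 in R 4.3.3 (lmFit, eBayes), MSC minus control, with Benjamini-Hochberg adjustment over all of them. The other 2173 probe sets were not tested. A gene with several clusters was represented by the brightest. The background level is the 95th percentile of the antigenomic means. The fit was checked on simulated data.

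Genes, lists and tests were chosen with earlier results of these data known. By the rule for named genes, PSMB5 to PSMB9, the PSME genes and PSMF1 were described in full. So were the 3 genes with the highest and the 3 with the lowest difference. The rule also covered up to 4 genes per further list with the smallest p. In the class I and partner lists these are all named, some by their difference or array values alone. In the marker lists only some are named. The remaining members stand as examples of their subcomplex. TAP1, PDIA3, CALR, IRF1, IFNG, NFE2L1 and albumin were chosen after their values were seen. Of 3 planned ratios of inducible over constitutive subunits, 2 could be computed. Replicate numbers come from the labels. Alternatives covered normalization, filters, array weights, a replicate block and each array left out.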

Additional observations from a re-analysis of the deposited data

How the results depend on the processing

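With the fold criterion kept, genes of the 19 passed the threshold of the study under 1 alternative: without MSC 2 there were 2 (PSMB9 at 0.77, PSMF1 at 0.57). With 1 array left out the count of genes ran from 0 to 2, and without a fold criterion it was 3. The median difference of the 19 lay between 0.13 and 0.31 with 1 array left out and between 0.18 (quantile normalization repeated) and 0.28 (array weights, and likewise arrays centred on their median) otherwise, and that of the immunoproteasome genes between 0.03 (without MSC 3) and 0.52 (without MSC 2) with 1 array left out, with 0.23 (quantile normalization repeated) to 0.40 (array weights) otherwise. Of the single genes described in full, 5 turned negative with 1 array left out. PSMB8 ran from -0.12 to 0.55 and PSME2 from -0.0066 to 0.50 (lowest without MSC 3, highest without MSC 2), and PSMB6 ran from -0.033 to 0.39, PSMC3 from -0.069 to 0.30 and PSMC6 from -0.035 to 0.13 (lowest without control 2, highest without control 1). Over all clusters 692 passed, 314 higher and 378 lower, and the balance turned with arrays centred on their median (384 higher, 305 lower). The count was 188 when the 5627 clusters above the background level were fitted alone. In the fit of all clusters 205 of these passed. The count was 1565 with array weights, 1662 without a fold criterion and 32 by the methods' t-test (p under 0.05, more than 2-fold). That t-test called 0 after Benjamini-Hochberg adjustment. With 1 array left out the limma count ran from 445 without control 2 to 2215 without control 1, with 1240 without MSC 2. The cause was not tested. After Benjamini-Hochberg adjustment limma called 0 of 25385 clusters, against 1662 at an unadjusted p under 0.05. Correlations of deviations lay between -0.08 and 0.25 for MSC and control arrays of the same number, and between -0.18 and 0.20 for different numbers. The highest was that of MSC 2 with control 2. So few pairs cannot settle whether the numbers pair the arrays. With a replicate block 834 clusters and 0 of the 19 genes passed, with 1 gene at an unadjusted limma p under 0.05 in place of 3. The number of arrays, and for PSMB8, PSMB9, PSMG3, PSMG4, PSMA8, NGLY1 and PAAF1 the signal near or below background, limit these values.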
